A study of Homo sapiens with 6 samples.

Results

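The mRNAs described here encode the machinery that prepares human DNA for replication. They are the 6 subunits of the origin recognition complex (ORC1 to ORC6), the loading factors CDC6 and CDT1, and GMNN (geminin), the inhibitor of CDT1. They were taken by gene symbol, 9 of the 23013 genes with a value in the table, and all 9 were found. The libraries were made by native RIP-seq on nuclei of untreated, asynchronous HCT116 cells, a human colorectal carcinoma line. In RIP-seq an antibody captures a protein from a lysate, without crosslinking in the native form, and the RNA bound up with that protein is then sequenced. The input group holds 3 libraries of nuclear RNA made without antibody, and the ORC1 IP group 3 libraries of RNA recovered with an antibody against endogenous ORC1, 1 of each per RIP replicate. The comparison therefore asks whether the mRNAs of ORC1 itself and of its partners come down with the ORC1 protein beyond their level in nuclear RNA. A library from a control antibody was not analysed here, so the background of each mRNA in an immunoprecipitation was not measured. The study reports that its control IgG yielded no detectable RNA.

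Licensing is the step that makes a stretch of DNA competent to replicate. ORC binds chromatin, CDC6 joins it, and CDT1 brings in the MCM helicase, which is loaded around the DNA before S phase begins. Geminin accumulates from S phase on and binds CDT1, and CDT1, CDC6 and ORC1 are also removed by regulated proteolysis, so that no origin is licensed again in the same cycle. ORC1 and CDC6 are related ATPases, ORC4 and ORC5 share their fold, and ORC6 is the subunit least like the rest. Several of these genes, CDC6 and ORC1 among them, are textbook targets of the E2F transcription factors, which switch on genes for S phase.

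Reads on genes came to 13703033 to 17248924 in the inputs and 25134156 to 36008733 in the ORC1 IPs. The 9 mRNAs had enough reads that counting error, a coefficient of variation of 1.34% to 6.1% per value, lay below the spread between libraries of a group, 12.5% to 75%. ORC1 IP replicate 2 stood apart from ORC1 IPs 1 and 3. Mitochondrial transcripts took 6% of its reads, against 0.617% and 0.257% in ORC1 IPs 1 and 3 and 1.49% to 3.28% in the inputs. All 5 epithelial markers on the list (EPCAM, CDH1, KRT8, KRT18 and KRT19) were above 100 normalised counts in every library and lowest in ORC1 IP replicate 2. Their summed level was 47499 to 138175 in the inputs and 16573 to 144917 in the ORC1 IPs. None of 3 blood markers was listed in the table, VWF, the 1 of 2 endothelial markers listed, reached at most 37.3, and COL1A1, the 1 of 3 fibroblast markers listed, was at 161 to 787. The part of ORC1 IP replicate 2 in each result was not tested beyond leaving it out, and each member's value without it is given.

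The sequences that bear on the comparison are few. Tandem GAA repeats are a feature examined in the study for RNAs that come down with ORC1. The study found them by a motif search and reported that ORC1 does not bind RNA through them. Here an exact word was searched instead, which is a different measure. GMNN was the only member whose transcript contained the letters GAAGAAGAA, once, in its coding sequence. The match covers bases 862 to 870 of transcript ENST00000230056.8 and starts at codon 177 in frame. The match is in capitals, with 25 bases on either side (GENCODE v44, sense strand, transcript bases 837 to 895).

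GMNN: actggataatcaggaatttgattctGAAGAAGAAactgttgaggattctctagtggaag

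Of all tested genes with a transcript, 13.0% of 16062 held the same letters in the sense strand of the transcript, and 14.7% of 12537 protein-coding genes did. The shorter word GAAGAA, counted with overlaps, occurred 7 times in the coding sequence of ORC2, 6 times in that of ORC3, 4 times in GMNN, 3 times in ORC1, 0 times in CDT1 and 1 time in each of the other 4. No relation between these counts and the differences described next was tested.

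None of the 9 mRNAs passed the test in either direction (limma on log2 of the normalised count + 1, Benjamini-Hochberg adjusted p under 0.05 over 16513 genes). Over all tested genes, 2.28% were called higher and 1.42% lower in the ORC1 IP, so 0 of 9 lies near that background. At an unadjusted p under 0.05 by limma, 1 of the 9 differed (ORC3), beside 21.6% of all tested genes. On the recovered reads, edgeR and DESeq2 called 0 of 9. Of the 16513 genes, edgeR called 425 higher and 216 lower, while DESeq2 called 7.67% higher and 4.35% lower. The normalised count is the number of reads divided by 1 size factor per library. The 3 ORC1 IP values overlapped the 3 input values for all 9 members, whereas all ORC1 IPs lay above all inputs in 12.7% of tested genes and below in 13.5%. The median log2 difference of the members was -0.06, with 4 of 9 positive, beside a median of 0.01 and 50.7% positive over all tested genes. The 2 largest differences were those of ORC3 and GMNN, and for both, input 1 was above ORC1 IP 2.

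**Figure D1:**
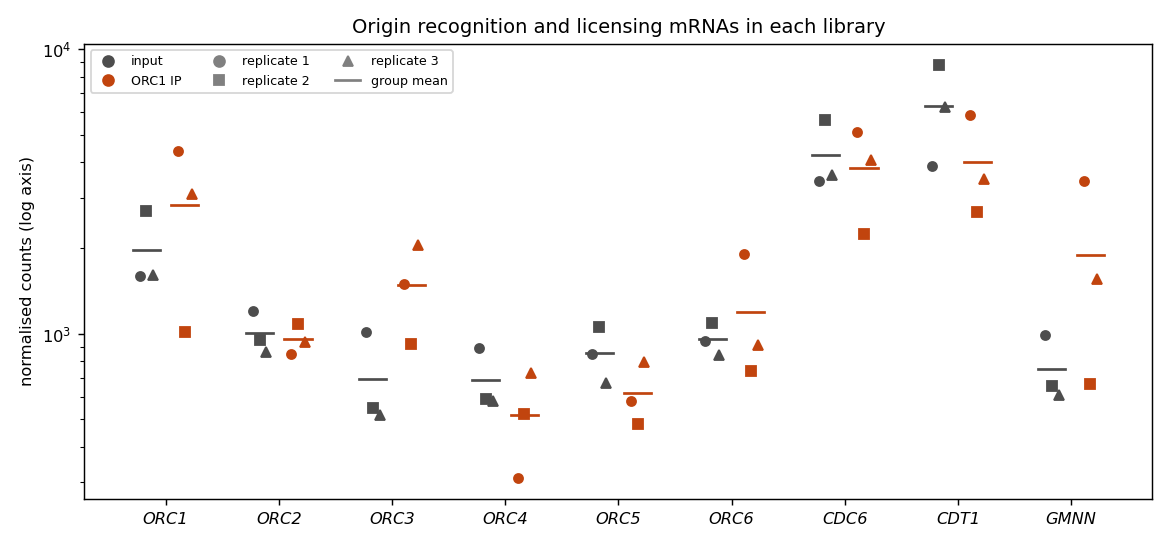
Normalised counts (log axis) of the 9 mRNAs in each library, with inputs in grey and ORC1 IPs in orange, the RIP replicate as marker shape and the group mean as a bar. The 2 groups overlap for every mRNA, and ORC1 IP replicate 2 (orange squares) is the lowest of the 6 libraries for ORC1, ORC5, ORC6, CDC6 and CDT1.

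ORC1, the antibody's target and the ATPase subunit that binds methylated histone H4 next to DNA, lies on the minus strand at chr1:52372829-52404423 (GRCh38 positions from GENCODE v44, as for all members). Its mRNA had 1588, 2693 and 1610.1 normalised counts in inputs 1 to 3, in that order, against 4389, 1011 and 3091 in the same-numbered ORC1 IPs. ORC1 IPs 1 and 3 were thus above every input and ORC1 IP 2 below every input. The difference was 0.33 ± 0.53 on the log2 scale (SE, n = 3), with a 95% interval from -0.81 to 1.47 (limma, adjusted p = 0.767). Within RIP replicates, the log2 IP/input was 1.47, -1.41 and 0.94. Without ORC1 IP replicate 2 the difference was 0.95 (adjusted p = 0.0813, limma), and without ORC1 IP replicate 1 it was -0.11, so its direction rested on single libraries.

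The core subunits ORC2 to ORC5 form, with ORC1, the ring that encircles DNA. ORC2 (minus strand, chr2:200908977-200963680) was the steadiest member. Its level was 1201, 950.3 and 857.7 in the inputs and 847.4, 1084 and 934.6 in the ORC1 IPs, with the highest value of the ORC1 IPs only 1.28 times the lowest. The log2 difference was -0.06 ± 0.34, and its 95% interval, a fold of 0.578 to 1.59, was the only one of the 9 to lie within a 2-fold change in both directions (limma, adjusted p = 0.937). Without ORC1 IP replicate 2 the difference was -0.16. The study also carries a primer pair for the ORC2 transcript, printed here because it shows which stretch of the mRNA such an assay reads. Both primers matched the 3′ UTR of transcript ENST00000234296.7, which follows a coding sequence that ends at base 1964, and they bound an amplicon of 112 bases from base 2829 to 2940.

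ORC2 forward primer: gcatattaatggctggctgtaa
ORC2 reverse primer: tcaggaggtttgaaatcatcac

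ORC3 (plus strand, chr6:87590067-87667453) encodes the subunit that pairs with ORC2 in the core of the complex. Its level was 1016, 545.3 and 516.0 in the inputs and 1495, 915.6 and 2044 in the ORC1 IPs. ORC1 IPs 1 and 3 were above all inputs, and ORC1 IP 2 was above inputs 2 and 3 but below input 1. The difference of 1.10 ± 0.41 on the log2 scale was a fold of 2.14 with a 95% interval of 1.15 to 3.97. With an unadjusted p of 0.0204 and an adjusted p of 0.145 (limma, n = 3), it did not pass the threshold. Within RIP replicates as the labels pair them, the log2 IP/input was 0.56, 0.75 and 1.98. By a looser rule, a log2 difference over 1 with an unadjusted p under 0.05, ORC3 was the 1 of 9 members to pass by limma. Of all tested genes, 10.9% passed it by limma. The study set the same cut-offs for its RIP-seq, with DESeq2. By DESeq2 on the recovered reads, both ORC3 (1.08, unadjusted p = 0.0169) and GMNN (1.32, unadjusted p = 0.0153) passed them. The share of all tested genes that passed them by DESeq2 was not counted. Passing them is therefore not read as a result about ORC3 or GMNN. At an adjusted p under 0.05, DESeq2 called 7.67% of all tested genes higher, and neither ORC3 (adjusted p = 0.0987) nor GMNN (adjusted p = 0.0927).

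ORC4 (minus strand, chr2:147930396-148021604) and ORC5 (minus strand, chr7:104126341-104208047) encode the remaining core subunits. ORC4 was at 886.3, 587.8 and 578.0 in the inputs and at 309.7, 519.6 and 725.1 in the ORC1 IPs, so that ORC1 IPs 1 and 2 were below every input and ORC1 IP 3 within their range. Its log2 difference was -0.45 ± 0.39, with an interval from -1.31 to 0.40 (limma, adjusted p = 0.541). It was -0.50 without ORC1 IP replicate 2 and -0.13 without ORC1 IP replicate 1. The ORC4 value is less certain than the others, since 12.4% of the 50-base words of its transcript also occur in other genes, and its exons share 431 bases with ACVR2A and 157 with MBD5, both on the opposite strand. For the strand setting of the read counting, no source used here gives a value. ORC2 shares 256 exon bases with the antisense gene ENSG00000183308 in the same way. ORC5 was at 844.1, 1051 and 671.7 in the inputs and at 580.3, 479.6 and 794.5 in the ORC1 IPs. ORC1 IPs 1 and 2 were again below every input, and the log2 difference was -0.48 ± 0.35, with an interval from -1.25 to 0.29 (limma, adjusted p = 0.47) and a value of -0.31 without ORC1 IP replicate 2.

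ORC6 (plus strand, chr16:46689643-46698394), which joins the ring through ORC3, was at 942.2, 1091 and 842.5 in the inputs and at 1910.2, 739.7 and 909.2 in the ORC1 IPs. A single library, ORC1 IP 1, was above the inputs and another, ORC1 IP 2, was below them. The log2 difference was 0.19 ± 0.40, with an interval from -0.68 to 1.06 (limma, adjusted p = 0.832). It was 0.47 without ORC1 IP replicate 2 and -0.22 without ORC1 IP replicate 1.

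CDC6 (plus strand, chr17:40287879-40304657), the ATPase that closes the ring with ORC for helicase loading, was at 3445, 5661 and 3623 in the inputs and at 5097, 2246 and 4094 in the ORC1 IPs. ORC1 IPs 1 and 3 lay within the range of the inputs and ORC1 IP 2 below it. The log2 difference was -0.20 ± 0.47, with an interval from -1.21 to 0.82 (limma, adjusted p = 0.852), and it turned to 0.14 without ORC1 IP replicate 2. CDT1 (plus strand, chr16:88803789-88809258), which carries the MCM helicase to ORC, was at 3891, 8827 and 6261 in the inputs and at 5883, 2674 and 3487 in the ORC1 IPs. ORC1 IPs 2 and 3 were below every input and ORC1 IP 1 was not. Its log2 difference was the lowest of the 9, -0.66 ± 0.51, with an interval from -1.75 to 0.44 (limma, adjusted p = 0.488), and -0.40 without ORC1 IP replicate 2.

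GMNN (plus strand, chr6:24774931-24786099), the only inhibitor of licensing among the members, was at 988.7, 654.0 and 606.1 in the inputs and at 3438, 663.6 and 1559 in the ORC1 IPs. ORC1 IPs 1 and 3 were above every input, while ORC1 IP 2 lay among them. The difference was 1.06 ± 0.52 on the log2 scale, a fold of 2.08 with a 95% interval of 0.955 to 4.55 (limma, unadjusted p = 0.0628, adjusted p = 0.261, n = 3). As the labels pair the libraries, the log2 IP/input of the RIP replicates was 1.80, 0.02 and 1.36. ORC1 IP 2 was thus level with input 2, while it was below input 1. The ORC1 IP values of GMNN spanned 5.18-fold, the widest range of the 9 members, followed by ORC1 with 4.34-fold.

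**Figure D2:**
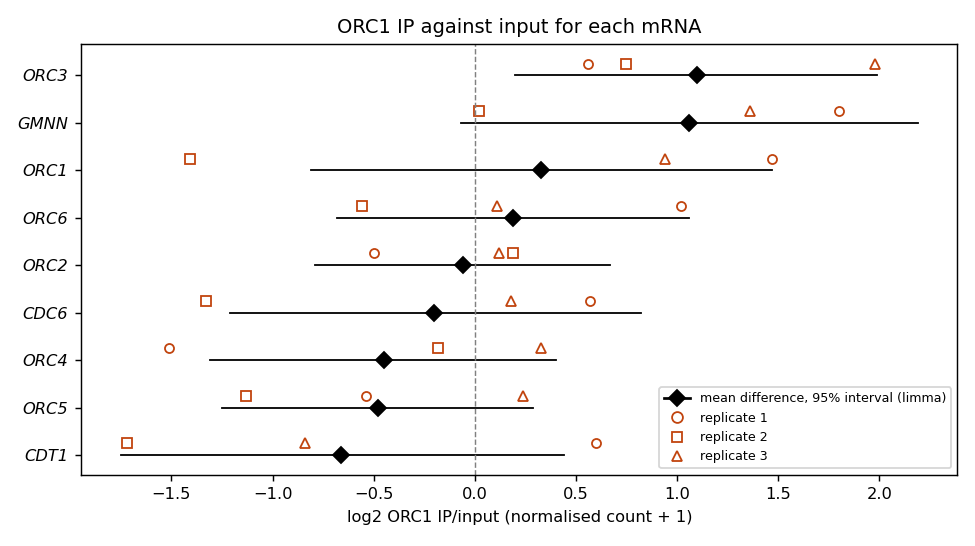
Log2 ORC1 IP/input of each mRNA, with black diamonds for the difference of the group means and lines for its 95% interval (limma, 3 libraries against 3), and open orange markers for the RIP replicates. The interval of ORC3 (0.20 to 1.99) is the only one that does not include 0, at an adjusted p of 0.145, and replicate 2 is the lowest replicate for ORC1, ORC5, ORC6, CDC6, CDT1 and GMNN.

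Leaving out ORC1 IP replicate 2 was the only one of 21 alternative settings under which any member was called. ORC3 then had a log2 difference of 1.41 (adjusted p = 0.0186) and GMNN one of 1.66 (adjusted p = 0.0102), both by limma. Without ORC1 IP replicate 1, in turn, GMNN was at 0.47 (adjusted p = 0.627) and ORC3 at 1.05 (adjusted p = 0.249). The members called without ORC1 IP replicate 2 are 2 of 9, while the genes called higher without ORC1 IP replicate 2 rose to 11.9% of all tested genes. The adjusted p over the 21 settings ranged from 0.0186 to 0.518 for ORC3 and from 0.0102 to 0.627 for GMNN.

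The low values of ORC1 IP replicate 2 were shared by much of the group. It was the lowest of the 6 libraries for 5 of the 9 members (55.6%), namely ORC1, ORC5, ORC6, CDC6 and CDT1, and for 25.7% of all tested genes. The pattern was not particular to the members, since it was also lowest for 20 of 41 tested licensing and firing genes described below (48.8%). The remaining members had their lowest value in ORC1 IP 1 (ORC2 and ORC4) or in input 3 (ORC3 and GMNN). The median log2 IP/input of the members was 0.57, -0.56 and 0.24 in RIP replicates 1, 2 and 3, beside -0.01, 0.01 and 0.05 over all tested genes. For the 41 licensing and firing genes it was 0.39, -0.67 and 0.39. Values of single RIP replicates rest on the pairing of the libraries given by the labels, which the test without a block does not use. Same-numbered deviations from the group means correlated across genes at -0.322, -0.24 and 0.215 in replicates 1 to 3. Whether any library is misnumbered was not tested. The agreement of RIP replicates in direction is not used as support for any member.

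The levels of the members in each library were also set against the GC content of their transcripts, which ranged from 37.4% in ORC4 to 64.3% in CDT1. Each level was first expressed as the log2 difference from the mean of that mRNA over the 6 libraries. In input 1 the order of the levels ran against the GC content (Spearman rho -0.917 over 9 mRNAs), as it did in ORC1 IP 2 (-0.817) and ORC1 IP 3 (-0.483). It ran with GC content in input 2 (0.633) and ORC1 IP 1 (0.483), and was weak in input 3 (0.117). Over 16062 genes the corresponding values were -0.343, -0.158, -0.184, 0.222, 0.0176 and 0.398, which describe genes within 1 library and carry no p. After a correction of each library for GC content and transcript length, the log2 difference was 0.94 for ORC3 (adjusted p = 0.156), 1.25 for GMNN (adjusted p = 0.206), -0.46 for ORC2 and -0.96 for ORC4 (adjusted p = 0.105), all by limma. The part of GC content in the differences between libraries was not tested further.

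**Figure D3:**
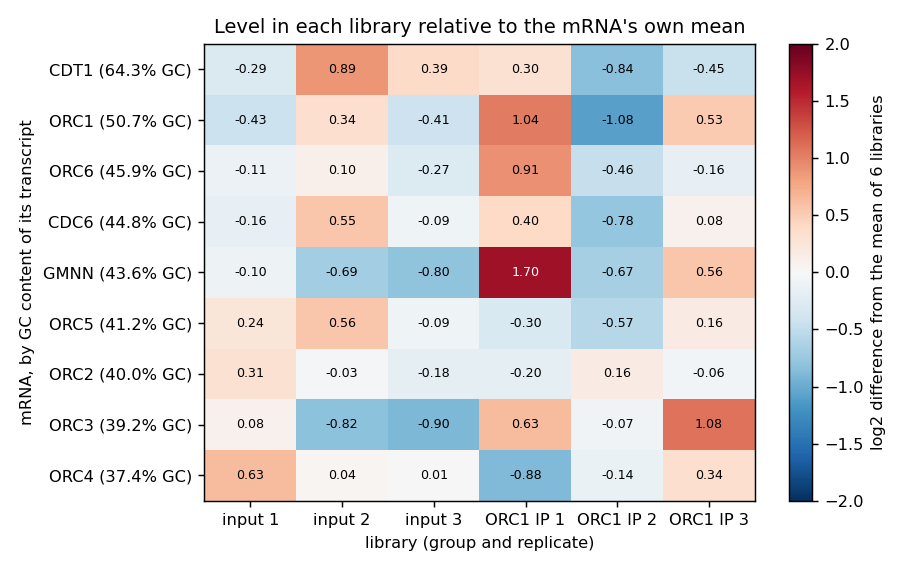
Log2 level of each mRNA in each of the 6 libraries relative to its own mean over them, with rows in order of transcript GC content. GMNN in ORC1 IP 1 (1.70) is the highest value and ORC1 in ORC1 IP 2 (-1.08) the lowest, and ORC1 IP 2 is below the mean for all rows but ORC2 (0.16).

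To compare members with each other, levels were divided by the length of the canonical transcript. In the inputs, CDT1 was highest with 2375 ± 927 normalised counts per kb (SD, n = 3) and ORC4 lowest with 104 ± 26.8. CDC6 followed CDT1 with 929.6 ± 270 and ORC1 came next with 629 ± 202. GMNN at 594 ± 165 and ORC6 at 593 ± 77.3 were level with each other and overlapped ORC1. ORC5 had 445 ± 98.8, ORC3 277 ± 112 and ORC2 234 ± 41.4. Every neighbouring pair in this order overlapped in range except the pairs at the ends, CDT1 with CDC6 and ORC2 with ORC4. In the ORC1 IPs, CDT1 at 1507 ± 626 and GMNN at 1494 ± 1121 had the highest means, and only the step from ORC2 to ORC4 (223 ± 27.9 and 79.1 ± 31.7) was free of overlap. The order depends on the transcript used. Per kb of all annotated exons, ORC6 fell to 222 and GMNN to 303 in the inputs, while ORC1 stayed at 629.

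**Figure D4:**
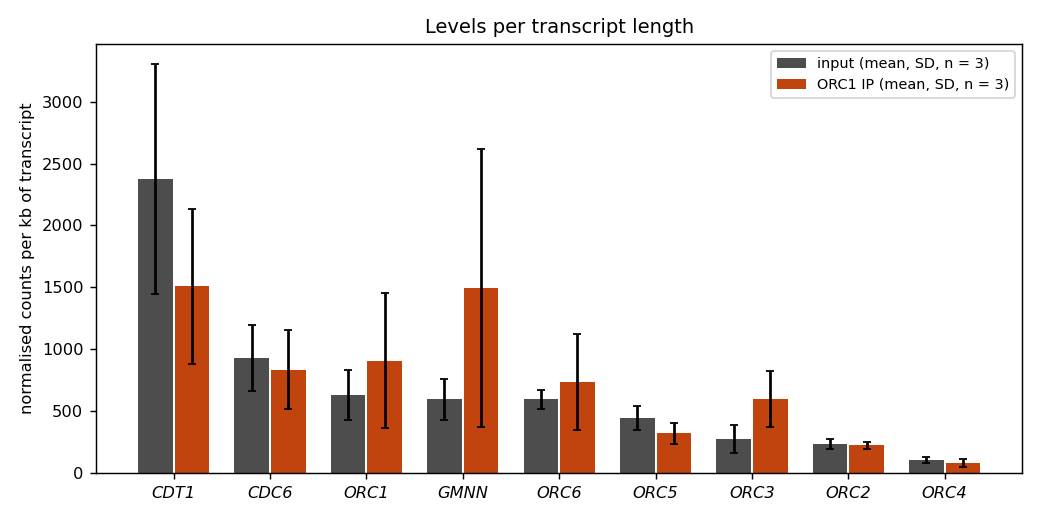
Mean normalised counts per kb of canonical transcript in inputs (grey) and ORC1 IPs (orange), with bars from 0 and error bars of 1 SD over 3 libraries, in order of the input level. CDT1 has the highest and ORC4 the lowest mean in both groups, and the SD of GMNN in the ORC1 IPs (1121) is the largest.

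Ratios of members within a library do not depend on how libraries are scaled. For GMNN to CDT1, the inhibitor and its target, the log2 ratio of normalised counts was -1.98, -3.75 and -3.37 in the inputs and -0.77, -2.01 and -1.16 in the ORC1 IPs. The ORC1 IPs were thus higher apart from ORC1 IP 2, which lay just below input 1. The means were -3.03 ± 0.93 and -1.31 ± 0.63 (SD, n = 3), a difference of 1.72 (two-sided exact permutation test, p = 0.2, where 0.1 is the smallest p that 3 against 3 allows). As the labels pair the libraries, the RIP replicates gave 1.20, 1.74 and 2.21, values that depend on that pairing. For ORC3 to ORC2, which contact each other in the complex, the log2 ratio was -0.24, -0.80 and -0.73 in the inputs and 0.82, -0.24 and 1.13 in the ORC1 IPs. ORC1 IP 2 again fell at the level of input 1. The difference was 1.16 (two-sided exact permutation test, p = 0.2), with 1.06, 0.56 and 1.86 in the RIP replicates under the same pairing.

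Promoter sequence was read for the 7 members with an entry in the RefSeq promoter table (GRCh38.p14, 250 bases before to 50 after the gene start), which leaves ORC4 and GMNN aside. An E2F-type word (TTTCCCGC, TTTCGCGC, TTTGCCGC or TTTGGCGC, on either strand) occurred in 3 of the 7, those of ORC3, CDC6 and CDT1, and in 3.31% of 35116 promoters. These 3 are shown because they include the member with the largest difference and both loading factors, with the word in capitals, together with ORC1, which held none of the 4 words. Each line is a stretch of 60 bases on the strand of the gene, at chr6:87590075-87590134 for ORC3, chr17:40287849-40287908 for CDC6, chr16:88803729-88803788 for CDT1 and chr1:52404424-52404483 for ORC1.

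ORC3: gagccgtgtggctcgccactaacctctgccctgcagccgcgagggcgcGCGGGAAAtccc
CDC6: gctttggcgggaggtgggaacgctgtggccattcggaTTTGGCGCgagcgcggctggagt
CDT1: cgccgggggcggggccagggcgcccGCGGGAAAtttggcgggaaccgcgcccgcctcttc
ORC1: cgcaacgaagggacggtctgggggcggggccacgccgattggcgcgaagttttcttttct

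Counted from the RefSeq gene start, the word starts 12 bases before it in ORC3 and 35 before it in CDT1, and lies just after it in CDC6. The GENCODE gene of ORC3 starts further upstream, so that its whole stretch lies inside the GENCODE gene. CDC6 and CDT1 shared their highest and lowest libraries, input 2 and ORC1 IP 2, whereas ORC3 was highest in ORC1 IP 3 and lowest in input 3. ORC5, whose promoter held none of the words, had the same highest and lowest libraries as CDC6 and CDT1. ORC1 and ORC6, also without a word, were lowest in ORC1 IP 2 as well. A match is a description of the letters in these windows and no evidence that a factor binds there.

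The mRNAs whose levels over the 6 libraries lay closest to those of ORC1 and of ORC3, the member with the largest log2 difference, were found among all tested genes by Euclidean distance between log2 levels centred on the mean of each gene. For ORC1 these were the gene ENSG00000175911 (distance 0.17), TAF5 (0.28), a subunit of the general transcription factor TFIID, and WDR12 (0.29), a ribosome biogenesis factor. For ORC3 they were MAP4K3 (0.23), a protein kinase, ZBTB38 (0.26), a zinc finger protein that binds methylated DNA, and KIF13A (0.27), a kinesin motor. None of these 6 was called (limma, adjusted p from 0.112 to 0.885). They were picked for levels like those of ORC1 and ORC3, which were not called, so this is no separate result.

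Beyond the members, 42 genes of licensing, firing and their control were listed and 41 were tested, since GMNC, a relative of geminin, was below the filter of a mean of 10 normalised counts. One of the 41 was called higher in the ORC1 IP and 0 lower, beside the 2.28% and 1.42% of all genes given above. The median log2 difference of the list was 0.01, with 21 of 41 positive, equal to the median of all tested genes. At an unadjusted p under 0.05, 3575 of all tested genes differed in either direction.

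The gene called was SETD8 (KMT5A), 1 of 5 chromatin partners tested, the methyltransferase that places the first methyl group on lysine 20 of histone H4. It was at 686, 383 and 316 normalised counts in the inputs and at 2297, 1197 and 1160.4 in the ORC1 IPs, so the groups did not overlap. All ORC1 IPs lay above all inputs in 12.7% of tested genes too, and for the listed genes TICRR, TOPBP1 and DBF4. The log2 difference was 1.75 ± 0.41 (limma, adjusted p = 0.0394, n = 3), and 1.74, 1.64 and 1.87 in the RIP replicates. The call held under 13 of 21 alternative settings and was lost under 8, with adjusted p from 0.00255 to 0.279. Without input 2, input 3, ORC1 IP 1 or ORC1 IP 3 the log2 difference was 1.66, 1.52, 1.43 and 1.92, with adjusted p of 0.164, 0.279, 0.0965 and 0.0814 (limma). The other 4 losses were under scaling by total count (1.54, adjusted p = 0.103), limma without the trend (1.75, adjusted p = 0.0851), and the GC and length correction (1.71) without and with the replicate block (limma, adjusted p = 0.0645 and 0.0523).

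No listed gene was called lower by limma, edgeR or DESeq2, while 3 of the 41 were lower at an unadjusted p under 0.05 (limma). The 2 with the smallest unadjusted p in that direction were SKP2 and GINS2. SKP2, the substrate receptor of a ubiquitin ligase that targets CDT1, was at 1278, 1642 and 1119 in the inputs and at 503, 861 and 496 in the ORC1 IPs. Its log2 difference was -1.15 ± 0.36 (limma, adjusted p = 0.0942), with -1.34, -0.93 and -1.17 in the RIP replicates, and it was called only without ORC1 IP replicate 2 (-1.41, adjusted p = 0.00958). GINS2, a subunit of the active helicase, was at 1526, 2088 and 2327 in the inputs and at 953, 1079 and 1184 in the ORC1 IPs, a log2 difference of -0.87 ± 0.35 (limma, adjusted p = 0.173). For both genes every ORC1 IP lay below every input, as was so for 13.5% of all tested genes. It was also so for other listed genes, LRWD1 and CDK1 among them.

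By role, 0 of 8 helicase and loading genes, 0 of 13 firing factors, 0 of 14 genes of destruction and kinase control and 0 of 1 tested geminin relatives were called in either direction by limma. At an unadjusted p under 0.05 the counts were 0, 4, 2 and 0, and DESeq2 called 0, 2, 0 and 0, beside the 21.6% of all tested genes at that p and the 7.67% higher and 4.35% lower by DESeq2. All of the MCM2 to MCM7 helicase genes (6 of 6) had their lowest value in ORC1 IP replicate 2, like CDC6 and CDT1, beside 25.7% of all tested genes. Without that library, 5 of the 41 genes were called higher, which were SETD8, TICRR, TOPBP1, MCM10 and MCM3, and 1 lower, SKP2. Over all tested genes, 11.9% were then called higher and 6.38% lower, so the share of the list called higher lies near the background.

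**Figure D5:**
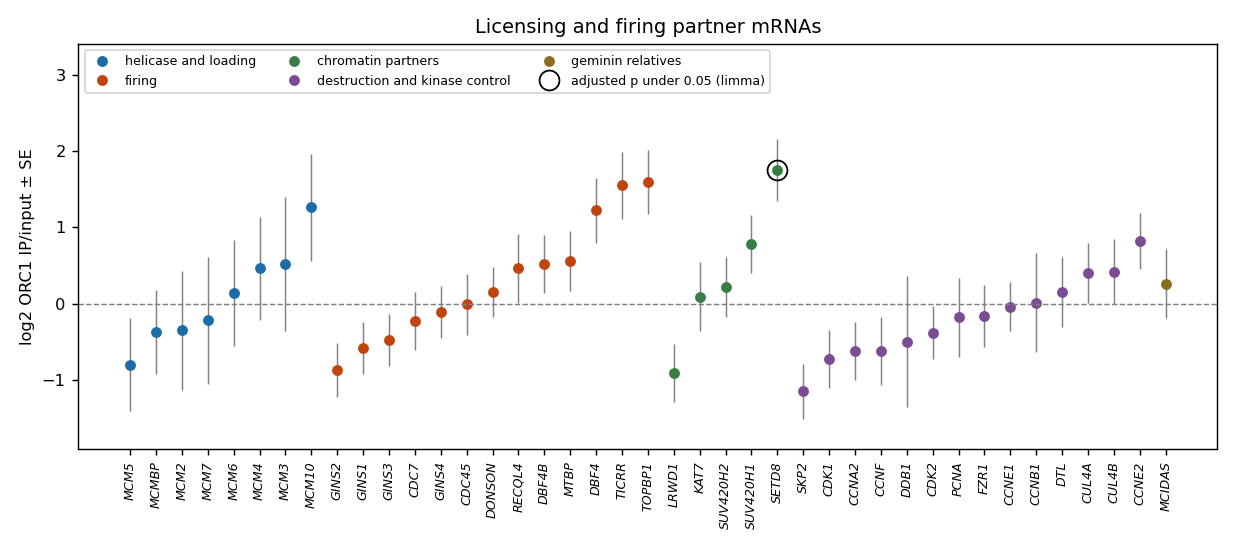
Log2 ORC1 IP/input ± SE (limma, 3 libraries against 3) of the 41 tested partner genes, grouped by role in colour and ordered by value within a role, with a black ring around the gene called. SETD8 at 1.75 is the highest and the only gene ringed, and SKP2 at -1.15 is the lowest.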

How the data were processed

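Trimmomatic, STAR (hg19) and featureCounts were used by the authors for trimming, alignment and counting per gene. The deposited values are a signal, gene counts divided by 1 DESeq2 size factor per library. All values (100%, tolerance 0.001) were whole multiples of 1 read, so reads were recovered. The table also holds the authors' own fold changes and p-values, which were not used.

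Genes with a mean of at least 10 (16513) were tested as log2(value + 1) with limma 3.58.1 (intensity trend, no block, R 4.3.3) and Benjamini-Hochberg adjustment. This scale understates changes of low genes. The study's methods describe triplicate ORC1 RIP experiments. Alternatives used other pseudocounts, filters and scalings, edgeR 4.0.16 and DESeq2 1.42.0 on recovered reads, a GC and length correction, a replicate block and leaving out each library. The labels pair input and ORC1 IP by RIP replicate, although across genes the deviation of an input from its group mean and that of the ORC1 IP with its number correlated at -0.322, -0.240 and 0.215 in replicates 1 to 3. Fits were tested on simulated counts with the same dispersion for every gene and library. That test did not copy the unequal spread or the GC differences of these libraries. Transcripts and coordinates were taken from GENCODE v44 on GRCh38, to which 97.3% of tested genes matched by Ensembl identifier, and promoters from RefSeq.

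Members and gene lists were chosen with earlier results of these data known. Named partner genes were those past the threshold or, where a direction had none, the 2 with the smallest unadjusted p.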

Additional observations from a re-analysis of the deposited data

How the results depend on the processing

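The log2 differences of the 9 members were recomputed under 21 alternative settings, and 180 of 189 values kept their direction and their side of the threshold. The exceptions were the calls of ORC3 (1.41) and GMNN (1.66) without ORC1 IP replicate 2, and 7 reversals. Scaling by total count, which shifted the median of all genes from 0.01 to -0.19, turned ORC6 to -0.03. Leaving out 1 library moved ORC1 between -0.11 and 0.95, ORC2 between -0.17 and 0.07, ORC6 between -0.22 and 0.47 and CDC6 between -0.45 and 0.14, with no call for these 4. The other ranges were -0.74 to -0.13 for ORC4, -0.67 to -0.31 for ORC5, -0.97 to -0.38 for CDT1, 0.83 to 1.41 for ORC3 and 0.47 to 1.66 for GMNN.

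Over all genes, 376 were higher and 234 lower. Scaling by total count gave 87 and 96, limma without the trend 143 and 96, DESeq2 1266 and 718, and the GC and length correction 111 and 57. With the replicate block added, that correction gave 68 and 30, and DESeq2, an alternative chosen after seeing the data, 906 and 484. The paired limma fit with the replicate block changed no call of a member (ORC3 adjusted p = 0.177, GMNN adjusted p = 0.209). Leaving out 1 library gave 6 to 1965 higher and 23 to 1053 lower genes, 0 to 2 members called higher, and 0 to 5 partner genes called higher with 0 to 1 lower. Partner genes called higher numbered 2 with upper quartile scaling, 3 with DESeq2 with and without the block, and 0 with total count scaling, without the trend and with the GC and length correction with and without the block. The causes were not tested. The within-library ratios ranged from 1.36 to 2.24 for GMNN to CDT1 and from 0.88 to 1.56 for ORC3 to ORC2 when 1 library was left out.

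Of the 9 members, only ORC2 had a 95% interval within a 2-fold change in both directions, so for the others the interval still holds a difference of that size in at least 1 direction. Counting error of the members was below the spread between libraries, and the effect of depth was not tested further.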
